A study of Mus musculus with 26 samples.

Results

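Sphingolipid enzymes build the galactolipids of myelin. The mRNAs of 10 genes of sphingolipid metabolism and transport were followed through a chase of labelled RNA. The cells were oligodendrocyte progenitor cells (OPCs) and the oligodendrocytes (OLs) made from them. The genes were Sptlc1, Sptlc2, Cers2, Fa2h, Ugt8a, Gal3st1, Ugcg, Sgms1, Gltp and Neu4, and their rows were taken by gene symbol from the tables, with 1 canonical transcript a gene. All 10 were among the 9751 transcripts listed for OLs, and 7 were among the 8530 listed for OPCs. Fa2h, Gal3st1 and Neu4 were not listed for OPCs. The study kept transcripts that passed a floor on FPKM at 0 h and were not at 0 early in the chase, so these 3 genes have no OPC level here.

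Both cell types were mouse cultures of the 129S/SvEv strain, with OPCs derived from epiblast stem cells and kept in bFGF and PDGFA. OLs were differentiated with noggin, IGF-1, cyclic AMP, NT3 and thyroid hormone (T3). Each culture took up 5-ethynyluridine (5-EU), a uridine analogue to which biotin can be coupled, for 24 h, and the OLs had differentiated for 40 h when the label was added. The label was then replaced with uridine, and labelled RNA was pulled down and sequenced after 0, 1, 2, 4 and 6 h from 3 OPC replicates and 2 OL replicates. These make 25 libraries, and 1 further OPC library prepared with no biotin was not analysed here. The OL cultures are mixed, as some cells stay progenitors. A pair of OPC replicates shared its starting cells with the OL replicates, but their numbers are not given. P-values between the cell types measure the spread between these cultures and not between animals. P-values of a fall within a cell type rest on the scatter of single libraries around a shared slope. Libraries of the same chase are not independent.

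Myelin is unusually rich in galactosylceramide and in its sulfated form, sulfatide. Serine palmitoyltransferase starts the pathway by joining serine to a fatty acyl group, a ceramide synthase adds a second acyl chain, and the ceramide is then passed to galactose, glucose or phosphocholine head groups. The galactose branch is the one for which oligodendrocytes are known, and mice that lack it form myelin that does not work normally.

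Labelled RNA at 0 h reflects what a cell made over the labelling time and had not yet degraded, and FPKM (fragments per kilobase of transcript, relative to the mapped reads of the library) compares it between genes per length. The depth of each library is unknown, since the tables give FPKM and not reads. Summed over 12 oligodendrocyte markers, of which 2 were listed for OPCs and 10 for OLs, the 0 h level was 37.6 to 55.1 FPKM in the OPC replicates, 6200 in OL replicate 1 and 2840 in OL replicate 2. All 9 OPC markers were listed for both cell types and summed to 1569 to 1726 FPKM in OPCs and to 1551 and 1357 FPKM in OLs. Olig1 was the largest part of that sum (1009 to 1079 FPKM in OPCs, 635 and 506 in OLs), and by gene 5 of the 9 were called higher in OLs and 2 lower, the higher ones including Gpr17 (log2 difference 5.51), Sox10 (3.07) and Pdgfra (1.7). Astrocyte markers (5 of 8 listed for OPCs, 7 of 8 for OLs) summed to 429 to 513 FPKM in OPCs and to 675 and 829 FPKM in OLs, with Aqp4 not listed and Gfap at 6.86 and 8.12 FPKM in OLs alone. Of the 5 tested, 2 were called higher in OLs, S100b (9.07 to 10.5 against 290 and 160 FPKM) and Slc1a2 (log2 difference 1.6), and 0 lower in limma, with Slc1a3 at 179 to 224 FPKM in OPCs and 95.5 and 155 FPKM in OLs and Gja1 at 35.8 to 42.0 FPKM and at 40.05 and 187.5 FPKM. Neuronal markers (2 of 8 and 3 of 8 listed) summed to 81.8 to 183 FPKM and to 203 and 189 FPKM, with Rbfox3, Snap25, Slc17a7, Gad1 and Gad2 not listed. None of the 6 microglial and 6 pluripotency markers was listed for either. The single markers given here were chosen after their values were seen. In these bulk cultures, fewer cells of a type and less RNA per cell cannot be told apart.

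The first comparison asked which steps of the pathway were at a different level in OLs. The galactosylating enzyme Ugt8a and the transfer protein Gltp were far higher in OLs, and Sptlc2 of the first step was higher by less. Of the 7 genes listed for both, these 3 rose and none fell, where the same test (limma on log2(FPKM + 1), Benjamini-Hochberg adjusted over 8177 transcripts) called 29.6% of all transcripts in either direction. Both OL values lay on 1 side of all OPC values for 5 of the 7, which was true of 59.3% of transcripts.

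Ugt8a encodes UDP-galactose ceramide galactosyltransferase, the enzyme that makes galactosylceramide. Its mRNA was at 2.45, 1.58 and 2.21 FPKM in OPC replicates 1, 2 and 3 and at 251 and 146 FPKM in OL replicates 1 and 2. The groups were far apart, and the log2 difference was 5.97 ± 0.29 (SE, limma adjusted p = 5.13e-05, higher in 2 of 2 OL replicates). Unlabelled RNA carried through the pull-down was not subtracted, and its part in the low OPC levels was not tested. Within a library, 1.0% to 5.7% of the transcripts listed for OPCs had a lower level than Ugt8a, against 98.2% and 96.4% of those listed for OLs.

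Gal3st1 adds sulfate to galactosylceramide and so makes sulfatide, and Fa2h hydroxylates the acyl chains that go into it. Gal3st1 was listed at 114 and 60.5 FPKM in OL replicates 1 and 2, and Fa2h at 54.2 and 37.0 FPKM. Neu4, a sialidase that removes sialic acid from glycolipids and glycoproteins, was at 45.7 and 42.7 FPKM. All 3 were above at least 76.8% of the OL transcripts of their library, and no test can be given for them.

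Gltp encodes the glycolipid transfer protein, which carries glycosphingolipids between membranes. It was at 7.99, 6.51 and 6.97 FPKM in OPCs and at 95.5 and 48.1 FPKM in OLs, a log2 difference of 3.08 ± 0.31 (limma adjusted p = 0.000407). Ugt8a, Gal3st1, Fa2h and Gltp were each higher in OL replicate 1 than in OL replicate 2, as was the sum of the oligodendrocyte markers. Cers2, Neu4, Sptlc1 and Sptlc2 were also higher in OL replicate 1, by less, while Ugcg and Sgms1 were lower. The part of the marker difference in these values was not tested.

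Sptlc1 and Sptlc2 are the subunits of serine palmitoyltransferase, and of the pair only Sptlc2 passed the test, while the difference between them was not tested. Sptlc2 was at 4.77, 6.43 and 6.61 FPKM in OPCs and at 12.4 and 11.8 FPKM in OLs, with a log2 difference of 0.93 ± 0.23 (limma adjusted p = 0.0184). This call was lost without OPC replicate 3 (adjusted p = 0.0569), without OL replicate 1 (0.108) and without OL replicate 2 (0.0826). Sptlc1 was at 26.5, 21.9 and 29.6 FPKM in OPCs and at 23.2 and 21.5 FPKM in OLs, and its log2 difference of -0.20 ± 0.22 did not pass (adjusted p = 0.528).

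Cers2, the ceramide synthase that prefers very long acyl chains, had the highest level of the 7 genes in OPCs. It was at 65.0, 60.2 and 56.5 FPKM there and at 72.8 and 60.9 FPKM in OLs, and its OL range lay partly within its OPC range (log2 difference 0.14 ± 0.21, limma adjusted p = 0.651). Ugcg, which adds glucose to ceramide, was at 25.03, 27.1 and 20.2 FPKM in OPCs and at 19.2 and 19.4 FPKM in OLs (log2 difference -0.29 ± 0.22, limma adjusted p = 0.344). Sgms1, which makes sphingomyelin from ceramide, was at 5.40, 8.68 and 5.88 FPKM in OPCs and at 8.76 and 14.4 FPKM in OLs (log2 difference 0.70 ± 0.29, limma adjusted p = 0.102). The Sgms1 difference was 1.03 without OL replicate 1 and 0.37 without OL replicate 2.

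The mRNAs of the galactosylating and the glucosylating enzyme were ordered differently in the cell types, which is a description. In OPCs the level of Ugcg exceeded that of Ugt8a in 3 of 3 replicates, and in OLs the level of Ugt8a exceeded that of Ugcg in 2 of 2. In OLs the order of mean levels was Ugt8a, Gal3st1, Gltp, Cers2, Fa2h, Neu4, Sptlc1, Ugcg, Sptlc2 and Sgms1. The replicate ranges of Gal3st1, Gltp and Cers2 overlapped, as did those of Gltp and Fa2h, those of Fa2h and Neu4 and those of Sptlc2 and Sgms1.

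**Figure D1:**
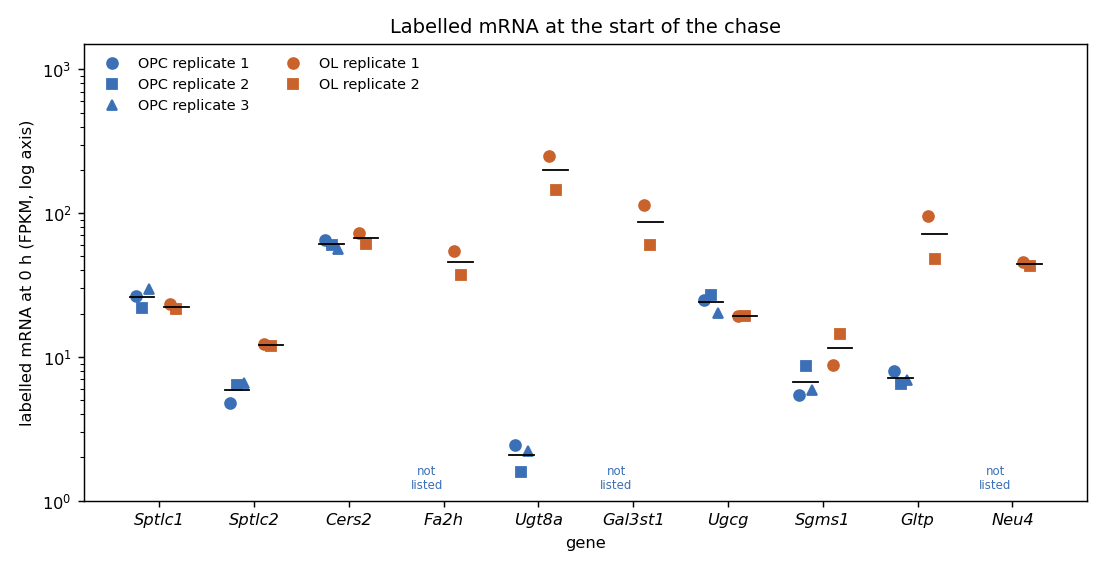
Labelled mRNA at 0 h (FPKM, log axis) of the 10 genes in each replicate, with OPCs in blue, OLs in orange and black bars at the group means. Ugt8a sits at 1.58 to 2.45 FPKM in OPCs and at 146 and 251 FPKM in OLs, while the OPC and OL points of Cers2 overlap.

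Among 85 other genes of sphingolipid metabolism, sorted into 8 lists, 58 were tested and 14 rose while 4 fell at 0 h, with a median log2 difference of 0.24 against -0.01 for all transcripts. The 18 called were 31.0% of those tested, near the 29.6% of all transcripts. Transport of ceramide and glycolipids had 3 of 6 members higher and none lower. They were Abca1, a cholesterol exporter (2.89 ± 0.41), Col4a3bp, which carries ceramide to the Golgi (1.75 ± 0.29), and Abca2, a lipid transporter of oligodendrocytes (1.55 ± 0.24). Supply of very long acyl chains had 3 of 10 tested higher, among them Acsl3, which activates fatty acids (1.69 ± 0.30), and Hacd2, a dehydratase of chain elongation (1.38 ± 0.26).

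Ceramide synthesis had 2 of 9 tested higher, and sulfate and UDP-galactose supply had 0 of 4 in either direction, with a median of 0.44. Sphingomyelin and ceramide phosphate genes went both ways, with 1 of 6 higher and 2 lower. Cerk, the ceramide kinase, rose by 1.86 ± 0.23, and Smpdl3b, a sphingomyelinase-like phosphodiesterase, fell by 2.47 on the log2 scale, from 11.6 to 18.3 FPKM in OPCs to 1.7 and 1.78 FPKM in OLs. Sphingosine phosphate genes had 2 of 5 higher and 1 lower, and S1pr1, a receptor for this lipid, rose by 3.21 ± 0.43. Breakdown genes had 2 of 12 higher and 1 lower, and ganglioside synthesis had 1 of 6 higher. Acsl3 was lost without OL replicate 1 (limma adjusted p = 0.0538) and Hacd2 without OL replicate 2 (0.0606). Abca1, at 10.95 and 31.06 FPKM in OL replicates 1 and 2, passed at 3.60 without OL replicate 1 and at 2.17 without OL replicate 2.

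The second question was how fast each mRNA was lost once labelling stopped. In OLs, Neu4, Ugcg and Gal3st1 were nearly gone at 6 h, while Gltp and Cers2 had no fall that passed the test. The authors scaled FPKM to spiked-in labelled RNA, so 1 factor per library moves all of its transcripts, and levels are given as percent of the same replicate's 0 h. The median transcript was at 31.5% and 36.6% of 0 h after 6 h in OL replicates 1 and 2, and at 14.4%, 11.0% and 17.7% in OPC replicates 1, 2 and 3.

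Neu4 kept 55.4% and 81.4% at 1 h, 60.1% and 61.5% at 2 h, 9.8% and 14.6% at 4 h and 6.1% and 4.6% at 6 h in OL replicates 1 and 2. Its slope over the chase was -0.66 ± 0.05 log2(FPKM + 1) per h (SE, limma adjusted p = 1.16e-06), and 2 of the 9751 OL transcripts had a steeper one.

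Gal3st1 kept 53.2% and 90.7% at 1 h, 65.0% and 87.3% at 2 h, 25.7% and 33.0% at 4 h and 8.4% and 9.7% at 6 h. Its slope was -0.54 ± 0.05 (limma adjusted p = 2.13e-06), with 48 transcripts steeper. Without the 6 h libraries its slope was -0.41 and 1338 transcripts, or 13.7%, were steeper. In the same libraries Ugt8a, which acts just before it, kept 68.9% and 47.2% at 4 h and 56.0% and 28.7% at 6 h, with a slope of -0.20 ± 0.05 (limma adjusted p = 0.00124). The Ugt8a call was lost without OL replicate 2 (-0.11, adjusted p = 0.264).

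Ugcg kept 70.2% and 95.6% at 1 h, 50.3% and 46.8% at 2 h, 16.6% and 12.1% at 4 h and 7.6% and 6.2% at 6 h in OLs. Its slope there was -0.56 ± 0.05 (limma adjusted p = 1.16e-06), with 32 transcripts steeper. A slope on the log2(FPKM + 1) scale is flattened for low transcripts. With 0.1 in place of 1 added to FPKM, 93 transcripts were steeper than Neu4, 183 steeper than Ugcg and 527 steeper than Gal3st1, which are 0.954%, 1.88% and 5.4% of OL transcripts.

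Fa2h kept 43.6% and 35.3% at 4 h and 25.4% and 16.7% at 6 h in OLs, with a slope of -0.35 ± 0.04 (limma adjusted p = 9.93e-06). Sgms1 kept 19.5% and 49.4% at 4 h and 16.5% and 15.4% at 6 h, with a slope of -0.36 ± 0.05. Sptlc2 kept 33.8% and 36.2% at 4 h and 23.2% and 30.4% at 6 h, with a slope of -0.29 ± 0.04. All 3 fell, and 14.4%, 13.7% and 27.7% of OL transcripts had a steeper slope than Fa2h, Sgms1 and Sptlc2. Sptlc1 kept 95.9% and 50.4% at 4 h and 23.2% and 48.6% at 6 h, with a slope of -0.22 ± 0.06 (limma adjusted p = 0.00281) that did not pass without the 6 h libraries (-0.12, adjusted p = 0.217).

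Gltp stood at 136.1% and 110.9% of 0 h at 4 h and at 154.0% and 119.4% at 6 h in OLs, and Cers2 at 157.4% and 101.5% and then at 163.4% and 90.3%. Their slopes of 0.09 ± 0.05 and 0.08 ± 0.05 did not pass the test (limma adjusted p = 0.0849 and 0.158), and 97.2% and 95.8% of OL transcripts had a lower slope. A value above 100% depends on how the 0 h and later columns were scaled against each other. In all, 8 of the 10 genes fell in OLs, where 68.4% of all OL transcripts fell.

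**Figure D2:**
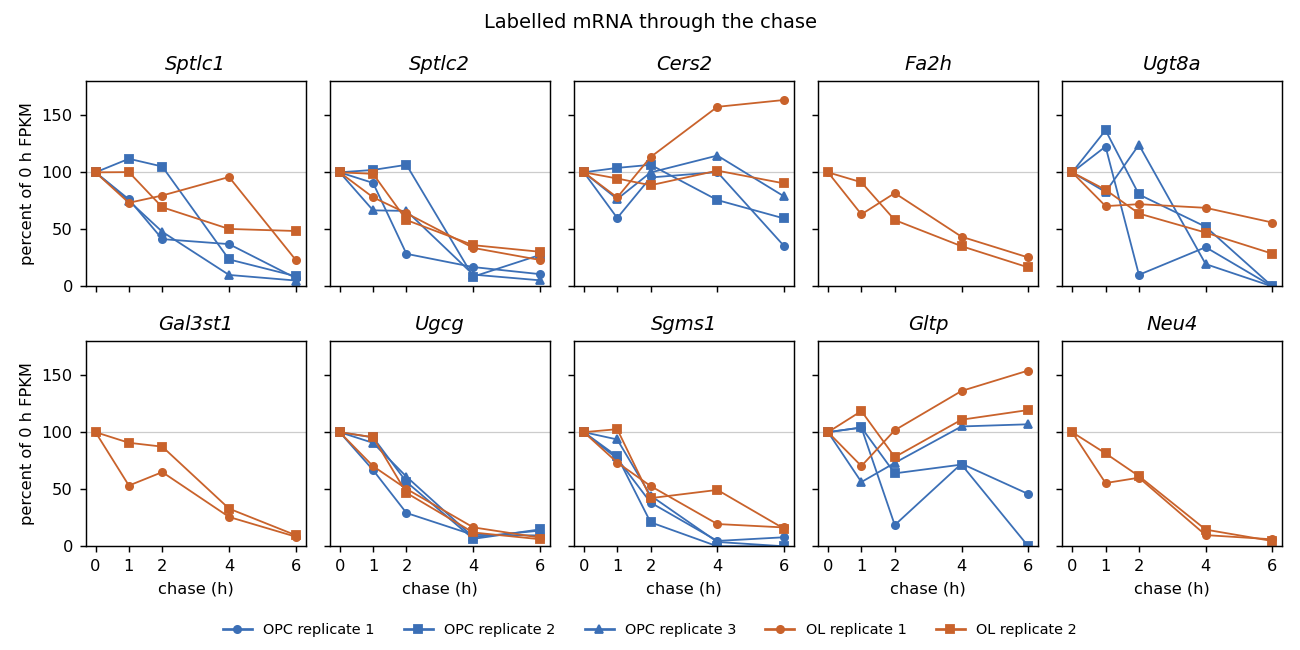
Labelled mRNA through the chase as percent of the same replicate's 0 h FPKM, 1 panel per gene, with OPC replicates in blue and OL replicates in orange. Neu4, Gal3st1 and Ugcg end between 4.6% and 9.7% in OLs, while Gltp ends at 119.4% and 154.0%.

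In OPCs 5 of the 7 listed genes fell, where 81.7% of all OPC transcripts fell. Sgms1 was low early, as it kept 38.3%, 21.0% and 44.4% at 2 h in replicates 1, 2 and 3, and at 4 h it was at 4.7% and 3.8% in replicates 1 and 3 and listed at 0 in replicate 2. Sptlc1 kept 37.1%, 23.7% and 10.1% at 4 h and 7.4%, 9.0% and 5.2% at 6 h, with a slope of -0.57 ± 0.05 (limma adjusted p = 6.38e-08). Ugcg kept 10.0%, 6.5% and 8.1% at 4 h and 9.5%, 14.8% and 13.7% at 6 h, with a slope of -0.53 ± 0.07. Sptlc2 kept 17.0%, 8.6% and 10.4% at 4 h and 10.8%, 27.6% and 5.4% at 6 h, with a slope of -0.38 ± 0.06. The slope of Sgms1 was -0.52 ± 0.06, and the median OPC transcript had -0.38.

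Ugt8a was listed at 0 at 6 h in 3 of 3 OPC replicates, from a start of 1.58 to 2.45 FPKM. Of all OPC transcripts, 15.7% to 21.6% were listed at 0 at 6 h, and an exact 0 in FPKM may be a failed estimate. Its slope of -0.28 ± 0.05 (limma adjusted p = 5.59e-05) became -0.72 with 0.1 added in place of 1.

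Gltp varied widely between OPC replicates, at 72.4%, 71.6% and 105.0% at 4 h and at 45.8% and 106.9% at 6 h in replicates 1 and 3, and was listed at 0 in replicate 2. Cers2 kept 100.2%, 75.7% and 114.7% at 4 h and 35.4%, 59.6% and 78.9% at 6 h. Neither slope passed the test (-0.16 ± 0.08 and -0.10 ± 0.05, limma adjusted p = 0.0819 and 0.0568), although both did without OPC replicate 3 (adjusted p = 0.0212 and 0.041). Without OPC replicate 2 the slope of Gltp was -0.02 (adjusted p = 0.803).

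**Figure D3:**
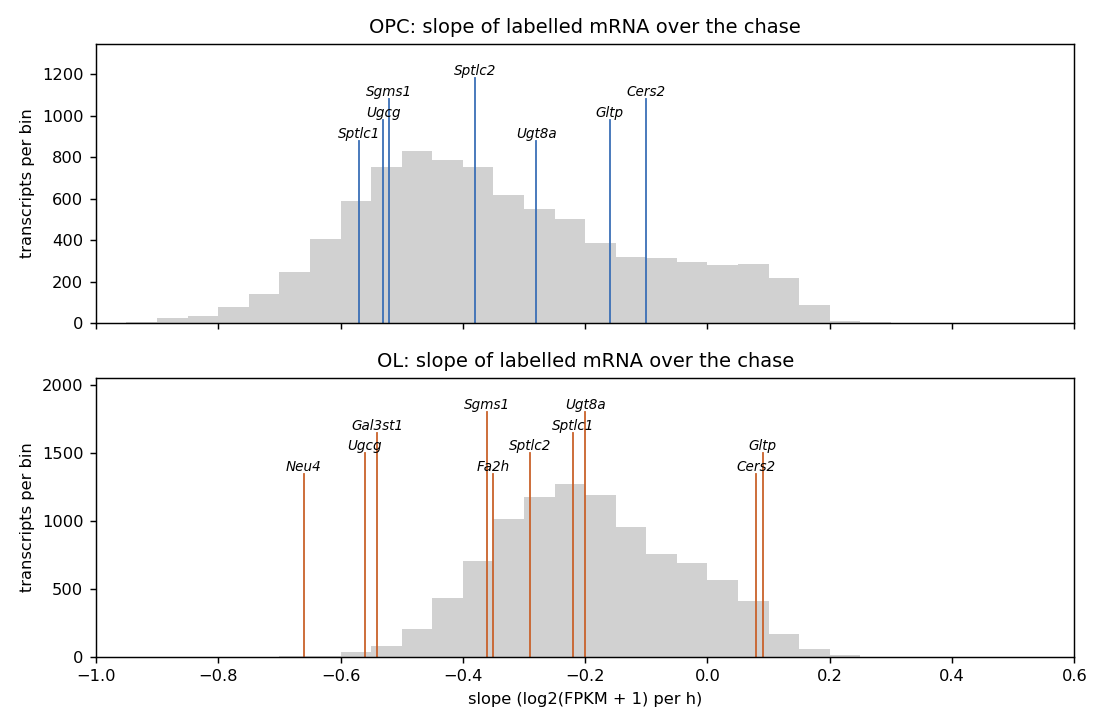
Histogram of the slopes of all listed transcripts over the chase, in log2(FPKM + 1) per h, with OPCs above and OLs below and a line for each of the 10 genes that is listed. In OLs, Neu4 at -0.66, Ugcg at -0.56 and Gal3st1 at -0.54 lie in the steep tail, and Gltp at 0.09 and Cers2 at 0.08 in the flat one.

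Each library was also centred on its median transcript, which removes the shared factor. The genes then split in both directions: Neu4 (-0.43), Ugcg (-0.33), Gal3st1 (-0.31), Sgms1 (-0.12) and Fa2h (-0.12) fell faster than the median OL transcript, and Gltp (0.33) and Cers2 (0.31) more slowly. In OPCs the centred slopes of Cers2 (0.34), Gltp (0.28) and Ugt8a (0.16) were above the median transcript and that of Sptlc1 (-0.13) below it, each past the threshold. The place of Ugt8a depended on the value added to FPKM. With 0.1 in place of 1 and no centring, its OPC slope was -0.72 against a median of -0.52. In that fit 25.6% of OPC transcripts were steeper than Ugt8a. Over all OL transcripts centring changed the split of calls from 146 rising and 6668 falling to 3046 and 1345, and over all OPC transcripts from 368 and 6966 to 3392 and 1186.

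The deposited half-lives give the same chases as 1 number per replicate. Values over 6 h were set here to 6 h, called the ceiling. Cers2 was at the ceiling in all 5 replicates, so a difference between the cell types beyond 6 h was not compared. Gltp was at 5.33, 3.09 and 6 h in OPCs and at the ceiling in both OL replicates. At the other end, Neu4 had half-lives of 1.19 and 1.96 h in OLs, longer than 9.2% and 14.2% of the transcripts of those replicates.

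Gal3st1 had half-lives of 2.04 and 2.50 h and Fa2h of 3.34 and 2.56 h in OLs, all below the OL medians of 4.15 and 4.05 h. Ugt8a was at 1.86, 4.28 and 1.96 h in OPCs, and in OLs it was at the ceiling in replicate 1 and at 3.33 h in replicate 2. The OPC medians were 2.33, 2.05 and 2.79 h, so OPC replicate 2 had a Ugt8a half-life above its median and the others had one below it.

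Ugcg was at 1.20, 2.17 and 2.09 h in OPCs and at 1.96 and 1.83 h in OLs, and the ranges overlapped although the median transcript lasted longer in OLs. Sgms1 was at 1.45, 0.89 and 1.71 h in OPCs and at 2.17 and 2.22 h in OLs, where both values exceeded all 3 OPC values. Sptlc2 was at 1.56, 3.23 and 1.71 h in OPCs and at 2.85 and 2.73 h in OLs.

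Sptlc1 had the largest log2 difference of the 7 between the cell types. Its half-life was 1.86, 1.96 and 1.88 h in OPCs, and in OLs it was at the ceiling in replicate 1 and at 4.04 h in replicate 2. The log2 difference was 1.37 ± 0.20 (SE), past the threshold before adjustment (p = 0.00384 in limma) and not after it (adjusted p = 0.0646). Against the ranks of all half-lives in the same replicates the difference was 27.8 ± 11.6 percentage points (limma adjusted p = 0.312), and with each replicate centred on its median the log2 difference was 0.47. It passed without OL replicate 1 (adjusted p = 0.0338), without OL replicate 2 (0.0211) and among the transcripts below the ceiling in at least 1 replicate (0.0427). It did not pass without OPC replicate 1, 2 or 3 (0.159 to 0.184), and refitted without the 6 h libraries the difference was 0.71 (adjusted p = 0.759).

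Of the 7 genes, 0 had a half-life difference past the threshold in limma, with 1 at an unadjusted p under 0.05, where 3.54% of 8112 transcripts passed. Only Sptlc1 and Sgms1 had both OL half-lives on 1 side of all OPC half-lives, which was true of 37.9% of transcripts. Among the other sphingolipid genes, Ormdl3, a regulator that restrains serine palmitoyltransferase (1.74 ± 0.18, limma adjusted p = 0.0433), and Elovl1, an elongase for very long chains (0.86 ± 0.08, adjusted p = 0.0396), passed with longer half-lives in OLs, of 58 tested. With each replicate centred on its median, Ormdl3 was lost (0.83, adjusted p = 0.0754) and Elovl1 turned to -0.04, and both were lost without OL replicate 1 (adjusted p = 0.157 and 0.138), without OL replicate 2 (0.155 and 0.141) and without OPC replicate 2 (0.115 and 0.0844). Ormdl3 was also lost without OPC replicate 3 (0.0888) and Elovl1 without OPC replicate 1 (0.111) and among the transcripts below the ceiling in at least 1 replicate (0.0658). Both were lost in half-lives refitted without the 6 h libraries (0.703 and 0.623).

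**Figure D4:**
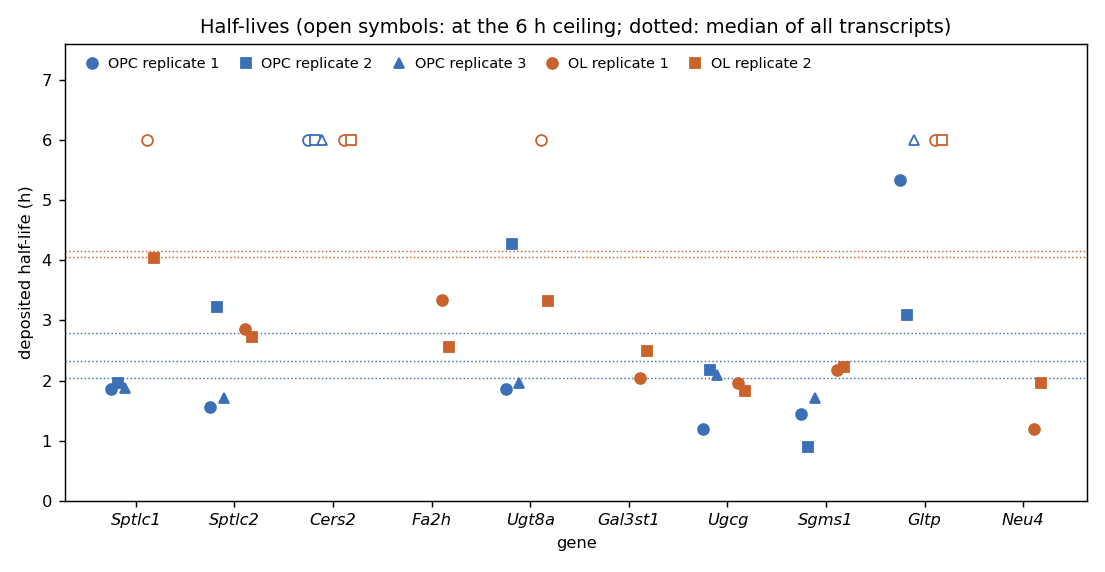
Deposited half-lives in h of the 10 genes by replicate, with values over 6 h set to 6 h. OPCs are in blue and OLs in orange, with open symbols at this ceiling and dotted lines at each replicate's median over all transcripts. Sptlc1 sits at 1.86 to 1.96 h in OPCs and at 4.04 h and the ceiling in OLs, and the Ugcg values of both cell types overlap.

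A direct test of the chase asked whether the slopes differed between the cell types, with 1 slope per replicate. Sptlc1 was lost more slowly in OLs. Its slopes were -0.50, -0.56 and -0.65 log2(FPKM + 1) per h in OPCs and -0.25 and -0.19 in OLs, and the difference was 0.35 ± 0.08 (SE, limma adjusted p = 0.0121). It was the only 1 of the 7 to pass, where 23.8% of 8177 transcripts passed, and the median difference of all transcripts was 0.14. Of the transcripts that passed, 1937 were flatter and 7 steeper in OLs, and with each library centred on its median 199 were flatter and 812 steeper. The Sptlc1 call was lost without OL replicate 1 (0.38, adjusted p = 0.0922), without OL replicate 2 (0.32, 0.115), without the 6 h libraries (0.41, 0.0575), with 0.1 added to FPKM (0.42, 0.0545) and with each library centred on its median (0.14, 0.245).

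Ugcg had nearly the same slope in both, at -0.52, -0.54 and -0.52 in OPCs and -0.53 and -0.60 in OLs, a difference of -0.03 ± 0.08 (limma adjusted p = 0.787). Among all transcripts 10.8% had a lower difference. Centred on the library medians, the difference for Ugcg was -0.24 (adjusted p = 0.0475), and without the 6 h libraries it was 0.17 (adjusted p = 0.33). Sgms1 (0.16 ± 0.08), Gltp (0.26 ± 0.12), Cers2 (0.18 ± 0.09), Sptlc2 (0.09 ± 0.08) and Ugt8a (0.08 ± 0.08) did not pass, although Gltp did without OPC replicate 3 (0.37, adjusted p = 0.0432), against 0.12 (0.379) without OPC replicate 2, and Ugt8a with 0.1 added to FPKM (0.52, adjusted p = 0.0363). Both OL slopes were flatter than all 3 OPC slopes for 4 of the 7 genes, namely Sptlc1, Sptlc2, Sgms1 and, by less than 0.01, Cers2, and 54.2% of all transcripts had their groups apart in this way in either direction.

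Of the 58 other sphingolipid genes tested, 10 had a flatter slope in OLs and none a steeper one, with a median difference of 0.11. These were 17.2% of those tested, below the 23.8% of all transcripts, whose median difference was 0.14. Ceramide synthesis had 4 of 9, among them Ormdl3 (0.41 ± 0.08), Ormdl2 (0.38 ± 0.10) and Cers1 (0.38 ± 0.10). Sphingomyelin and ceramide phosphate genes had 4 of 6, among them the sphingomyelinases Smpd2 (0.49 ± 0.10) and Smpd3 (0.28 ± 0.08) and the related Smpdl3b (0.28 ± 0.09). Gba2, a glucosylceramidase (0.47 ± 0.08), and Arsa, the sulfatase that degrades sulfatide (0.29 ± 0.09), also passed. Each of these 8 calls was lost with either OL replicate left out, and without the 6 h libraries 1 of the 8, Ormdl3, remained past the threshold. With each library centred on its median, 2 of the 8 passed, Smpd2 (0.28, adjusted p = 0.0476) and Gba2 (0.26, 0.0498), and the others were lost at 0.20 (Ormdl3), 0.17 (Ormdl2 and Cers1), 0.08 (Arsa), 0.07 (Smpd3) and 0.065 (Smpdl3b). Smpdl3b was also lost without OPC replicate 2 (limma adjusted p = 0.0756) or 3 (0.0851), and Arsa without OPC replicate 1 (0.0521) or 2 (0.051). With 0.1 added to FPKM, Smpd2 (0.0909), Ormdl2 (0.105), Cers1 (0.162), Arsa (0.0994) and Smpdl3b (0.121) did not pass.

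The study asked how codons for phenylalanine (UUU and UUC) and lysine (AAA and AAG) relate to stability, so the codons of these genes are given as a description. Coding sequences were read from GENCODE M21 on GRCm38. Gal3st1 used UUU for 11.1% of its 27 phenylalanine codons and AAA for 0% of its 18 lysine codons, and Gltp used them for 10.0% of 10 and 21.1% of 19. Ugt8a used UUU for 62.5% and AAA for 54.5%, Ugcg for 52.2% and 60.0%, against medians of 44.4% and 37.5% over 9738 OL transcripts. The stretch of 40 codons with the most phenylalanine and lysine codons is shown for these 4 genes, which had the lowest shares of UUU (Gal3st1 and Gltp) and the highest of AAA (Ugt8a and Ugcg) of the 10, with those codons in capitals (T stands for U).

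Gal3st1 codons 76 to 115: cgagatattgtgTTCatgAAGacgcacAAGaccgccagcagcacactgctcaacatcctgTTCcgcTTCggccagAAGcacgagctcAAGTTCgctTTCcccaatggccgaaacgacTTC
Gltp codons 128 to 167: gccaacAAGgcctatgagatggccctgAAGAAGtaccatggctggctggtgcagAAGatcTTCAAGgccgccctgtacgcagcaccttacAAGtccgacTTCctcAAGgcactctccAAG
Ugt8a codons 465 to 504: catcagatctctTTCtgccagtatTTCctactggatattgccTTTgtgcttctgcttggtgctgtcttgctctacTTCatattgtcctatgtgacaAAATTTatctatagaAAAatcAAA
Ugcg codons 10 to 49: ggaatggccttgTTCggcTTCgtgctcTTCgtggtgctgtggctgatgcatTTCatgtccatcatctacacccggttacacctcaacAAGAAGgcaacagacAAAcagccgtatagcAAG

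The Gal3st1 stretch holds 6 TTC and 4 AAG and none of TTT and AAA, and the Gltp stretch holds 2 TTC and 8 AAG. The Ugt8a stretch holds 2 TTT, 3 TTC and 3 AAA. The Ugcg stretch holds 4 TTC, 1 AAA and 3 AAG and no TTT, so it does not show the shares of the whole Ugcg coding sequence. Codon use was not tested against the chase. In the remaining genes UUU and AAA were at 33.3% and 28.6% in Fa2h, 28.6% and 31.6% in Cers2, 57.9% and 37.5% in Sptlc1, 57.1% and 37.5% in Sptlc2, 59.1% and 33.3% in Sgms1 and 41.2% and 0% in Neu4, which has 4 lysine codons.

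The pentamer ATTTA, a core of AU-rich elements, was counted in the 3′ untranslated region (3′ UTR). At least 1 was found in 9 of the 10 genes, where 69.2% of OL transcripts had at least 1. Gltp had 0 in 1009 bases and Ugt8a had 9 in 1945 bases. Ugcg had 6 in 2440 bases, Sgms1 5 in 1618, Sptlc2 7 in 4843 and Neu4 3 in 2918, and Fa2h, Cers2 and Sptlc1 had 1 each, in 1301, 810 and 1136 bases. Gal3st1, with a 3′ UTR of 249 bases, had 1, at position 164, and this is shown beside the last one of Ugt8a, at position 1878, with ATTTA in capitals.

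Gal3st1: taacggagaggtATTTAactaattatgcca
Ugt8a: ttaaatgcagggATTTAtcctttaaagtac

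Promoter windows from 250 bases before to 50 bases after the start were taken from RefSeq (GRCm38.p6), and 9 of the 10 genes had at least 1 entry. These 9 genes had 15 windows. A SOX motif (ACAAAG or ACAATG, both strands) was in 4 of the 15, against 28.6% of 32851 promoters, namely in both overlapping windows of Gal3st1, in that of Sptlc1 and in a window of Sgms1 that lies 39196 bases from the start of the transcript measured. The MYRF motif (CTGGCAC or CTGGTAC, both strands) was in 1 of the 15, against 7.1%, in a window of Sgms1 that lies 177499 bases from that start. The thyroid hormone receptor half-site AGGTCA (both strands) was in 3 of the 15, against 16.3%. Ugt8a held none of these.

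On GRCm38 the genes lie on 9 chromosomes, and their transcripts span chr13:53332748-53377397 (Sptlc1, ENSMUST00000021920), chr12:87305058-87388355 (Sptlc2, ENSMUST00000021424), chr3:95315084-95323599 (Cers2, ENSMUST00000015858), chr8:111345141-111393824 (Fa2h, ENSMUST00000038475) and chr3:125865271-125938619 (Ugt8a, ENSMUST00000057944). The others are at chr11:3983713-3999315 (Gal3st1, ENSMUST00000063004), chr4:59189257-59222833 (Ugcg, ENSMUST00000030074), chr19:32122727-32388512 (Sgms1, ENSMUST00000099514), chr5:114669398-114690984 (Gltp, ENSMUST00000012028) and chr1:94020493-94028334 (Neu4, ENSMUST00000050890).

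The transcripts whose log2(FPKM + 1) followed a gene most closely are given as a description, since all libraries share the decline of the chase. Over 25 libraries Ugt8a was closest to Cyfip2, Pacs2 and Col9a1 (Pearson r = 0.985 to 0.986) and Gltp to Shisa4, Scarb2 and Rnd2 (0.959 to 0.968). Cers2 was closest to Mapk3 (0.931), Tmem33 (0.883) and Scd2, a desaturase of fatty acid synthesis (0.88). Ugcg was closest to Tgfbr1, Rbm12 and Smug1 (0.959 to 0.978). Over the 10 OL libraries Gal3st1 was closest to Tmem132b, Ick and Man1a2 (0.99 to 0.991), Fa2h to Agpat4, Sh3d19 and Tppp (0.991) and Neu4 to Gpsm1, Pskh1 and Flvcr2 (0.991 to 0.994).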

How the data were processed

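After adapter removal with fastx_clipper, the authors mapped reads to GRCm38 (mm10) with HISAT2 2.1.0 and obtained FPKM from StringTie 1.3.5 and ballgown for the canonical coding transcripts in GENCODE vM9. Deposited FPKM were scaled by the authors to 5-EU-labelled spike-in RNAs. The 0 h columns carry more decimals than the later ones, and whether they were scaled in the same way could not be settled from the files. Half-lives were fitted by the authors by least absolute deviations, and the paper treats estimates longer than 6 h as at least 6 h. Deposited values over 6 h were set to 6 h here. A refit with the same limit fell within 0.01 h for all values of the 10 genes.

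Cell types were compared with limma 3.58.1 in R 4.3.3 on log2(FPKM + 1) at 0 h, on log2 half-lives, and on 1 slope per replicate. The fall within a cell type was fitted over all libraries with the replicate as a term. P-values were adjusted by Benjamini-Hochberg over all transcripts, with 0.05 as the threshold, and the fits were tested on simulated data. Alternatives were a pseudocount of 0.1, a mean of at least 5 FPKM, centring, leaving out the 6 h libraries or each replicate, and a replicate block.

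All listed genes of the 10 were named, with up to 8 others per comparison by size of change among those past the threshold, and the 3 transcripts with the highest correlation, of which those of 7 genes are printed. The genes and lists were chosen with earlier results of these data known, and 1 gene was taken out of the lists and their counts and is not reported here.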

Additional observations from a re-analysis of the deposited data

Results flagged for a closer look

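The test of a slope difference between OLs and OPCs passed for Sptlc1 (0.35 log2(FPKM + 1) per h, flatter in OLs, with both OL slopes above all 3 OPC slopes) and for 8 other genes of sphingolipid metabolism that were named by the size of their difference. These were Smpd2 (0.49), Gba2 (0.47), Ormdl3 (0.41), Ormdl2 (0.38), Cers1 (0.38), Arsa (0.29), Smpd3 (0.28) and Smpdl3b (0.28), all flatter in OLs. The median difference of all 8177 transcripts was 0.14 in the same direction, and 23.8% of them passed, against 17.2% of the 58 other sphingolipid genes tested. Both OL slopes lay on 1 side of all OPC slopes for 54.2% of transcripts. With each library centred on its median, Smpd2 (0.28) and Gba2 (0.26) passed, and Sptlc1 (0.14), Ormdl3 (0.20), Ormdl2 (0.17), Cers1 (0.17), Arsa (0.08), Smpd3 (0.07) and Smpdl3b (0.065) did not. None of these 9 genes passed with OL replicate 1 or with OL replicate 2 left out, where a single OL culture remained.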

How the results depend on the processing

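At 0 h, Ugt8a and Gltp passed under all 9 alternatives, and the number of transcripts called ranged from 896 to 2605 with 1 replicate left out. Neu4, Gal3st1, Ugcg, Fa2h and Sgms1 fell in OLs under all 7.

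Centring on medians cut the calls in either direction to 4578 and 4391 for the slopes in OPCs and OLs (1186 and 1345 of them falling), to 1011 for the slope difference and to 1 for half-lives. It turned the slopes of Gltp (0.277), Cers2 (0.335), Sptlc2 (0.059) and Ugt8a (0.156) in OPCs and of Sptlc1 (0.018) and Ugt8a (0.035) in OLs, the slope differences of Cers2 (-0.033), Sptlc2 (-0.123), Ugt8a (-0.128) and Sgms1 (-0.054), and the half-life differences of Gltp (-0.527), Sptlc2 (-0.46), Ugcg (-0.80), Ugt8a (-0.061), Sgms1 (-0.145) and Elovl1 (-0.039).

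Without the 6 h libraries, 23 half-life and 1240 slope differences passed, 0 of the latter among the 7 genes, and the OPC slope of Cers2 (0.013), the slope difference of Ugcg (0.168) and its half-life difference (-0.091) turned. With 1 replicate left out, a lone OL replicate being assumed to vary as the OPC replicates do, half-life calls ranged from 167 to 236 (0 to 1 of the 7 genes) and slope difference calls from 0 to 2209 (0 to 2 genes), and 4 values turned: Ugcg in half-life difference (range -0.173 to 0.254, below 0 without OPC replicate 1) and slope difference (-0.068 to 0.003, above 0 without OL replicate 2), Ugt8a in slope difference (-0.009 to 0.176, below 0 without OL replicate 1) and Cers2 in the OL slope (-0.01 to 0.16, below 0 without OL replicate 1).

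Among transcripts below the ceiling in at least 1 replicate, 554 half-life differences passed (1 of the genes). Of ranks, an alternative chosen after seeing the data, 23 passed. A pseudocount of 0.1 left 569 slope differences, with Ugt8a passing (0.52, adjusted p = 0.0363). With a mean of at least 5 FPKM, 2 of 4 genes tested fell in OPCs, since fewer were tested. Replicates 1 and 2 of the cell types did not deviate together (r = 0.038 at 0 h, -0.059 for half-lives, -0.071 for slopes), so their numbers were not taken to pair cultures. With a replicate block, 0 half-life differences (1554 at an unadjusted p under 0.05 in limma) and 2286 slope differences passed, 2 of them of the genes (Gltp at 0.37, adjusted p = 0.00428), and 1932 differences at 0 h. Without the block in the fall over the chase, Cers2 passed in OPCs (-0.10, adjusted p = 0.0477). Where not stated, the cause was not tested.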
